A study of Mus musculus with 2 samples.

Results

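Cycling transit-amplifying epithelial cells of the mouse small intestine were compared between 1 library labelled control and 1 labelled model. They numbered 458 control and 560 model cells, together 1018 of the 15242 cells kept (7329 control and 7913 model). Cells were taken by their transcripts, counted as UMIs (unique molecular identifiers, tags that each mark a single captured RNA molecule). The UMIs of the cell cycle genes Mki67, Top2a, Birc5 and Ube2c had to sum to at least 5, and the epithelial adhesion gene Epcam needed at least 1. Lgr5, which marks crypt base stem cells, the leukocyte gene Ptprc and the T cell genes Cd3e, Cd3d and Cd3g had to be at 0. Kept barcodes held at least 500 UMIs and 200 genes, with at most 25% of UMIs from mitochondrial genes.

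Small intestine was freed of mesentery and Peyer's patches and taken apart with EDTA followed by collagenase A with DNase I, and the RNA of its single cells was sequenced on the 10x Genomics droplet platform. The labels give each library no more than the tissue and the word control or model. The title of the series speaks of simulated microgravity, radiation and a preparation named CB001, but the labels do not say which of these the model library received, nor the strain, age, sex or number of animals, nor the stretch of intestine taken. Intestinal region, animal and group therefore cannot be told apart. A group of 1 library leaves no test over samples: each difference is between these libraries, has no replicate check, and carries an exact 95% interval that covers counting error only.

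Transit-amplifying cells are the daughters of crypt base stem cells. They divide several times while they move up the crypt, lose Wnt-driven stem cell transcripts on the way, and enter either the absorptive lineage or, where Notch signalling is low, a secretory lineage. Their divisions supply nearly all of the cells that the villus sheds, and they are known for fast cycling and for their sensitivity to irradiation.

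In 56980 genes, 61370270 UMIs were counted over 10259 control barcodes and 76701215 over 11468 model barcodes. The cycling cells carried 11859976 control and 14220121 model UMIs, with a median of 21127 UMIs and 5000.5 genes per cell in the control and 19977.5 UMIs and 4885.5 genes in the model. Depth ranged from 1567 to 134534 UMIs per control cell and from 1010 to 138437 per model cell, and the medians were 5.81 and 5.31 times those of all kept cells. The 2 libraries shared 28 barcodes, of which 2 control cycling cells and 0 model cycling cells carried one. A further 46 control and 34 model barcodes met every other condition but were over the mitochondrial limit.

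The label was checked on genes that the selection did not use, beside T cells (at least 2 UMIs of the Cd3 genes and 0 of Epcam) as a background. Krt8, an epithelial keratin, had a UMI in 99.1% of control and 99.1% of model cells, the adhesion gene Cdh1 in 93.4% and 92.5%, the brush border gene Vil1 in 89.5% and 82.7%, and the intestinal cadherin Cdh17 in 91.0% and 92.3%. With all cells thinned to 5000 UMIs, Krt8 was in 99.3% and 98.6% of the cycling cells and in 30.8% and 25.9% of 78 and 81 T cells deep enough. Cdh17 was in 81.6% and 79.6% against 3.85% and 2.47% of those T cells, Cdh1 in 87.4% and 83.6% against 19.2% and 14.8%, and Vil1 in 59.3% and 51.9% against 15.4% and 11.1%. The 4 epithelial genes thus lay above the T cell background in both libraries. Part of that distance is set by construction, since members needed Epcam and the T cells had to lack it. The mesenchymal and leukocyte gene Vim was seen in 3.93% and 4.46% of the cycling cells and the leukocyte gene Cd52 in 5.68% and 7.86%, or 2.18% and 2.57% and 2.18% and 3.17% after thinning. Pcna, the replication clamp, was seen in 77.7% and 79.6%, but its thinned share of 50.6% and 53.7% was no higher than that of these T cells, 52.6% and 55.6%. Thinned to 2000 UMIs, which keeps 551 and 1129 T cells, it was in 28.3% and 30.2% against 22.7% and 20.02%. Its order beside T cells thus depended on the depth.

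The 4 genes that chose the cells are given as a description. Their summed UMIs had a median of 20 per control and 19 per model cell, with highest values of 260 and 251. Mki67, a chromosome-coating protein of dividing cells, was seen in 97.4% and 95.7%, and the DNA topoisomerase gene Top2a in 88.6% and 85.4%. Birc5, of the chromosomal passenger complex, was seen in 83.4% and 88.0%, and Ube2c, the ubiquitin enzyme of the anaphase-promoting complex, in 88.0% and 87.1%. Just outside the limit, at a sum of 4, lay 38 control and 56 model cells with median depths of 10890.5 and 8935.5 UMIs. Just inside, at a sum of 5, lay 29 and 32 cells with medians of 7321 and 13950 UMIs. A median of 0.152% and 0.205% of UMIs came from G2 and M phase genes in the cells just outside, and 0.271% and 0.213% in those just inside, so the limit cuts through a continuous range.

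Cycling cells made up 6.25% of all kept cells in the control (95% Clopper-Pearson interval 5.71 to 6.83) but 7.08% (6.52 to 7.66) in the model, a ratio of 1.13 (0.999 to 1.28). Among kept epithelial cells the shares stood further apart, at 12.04% (11.02 to 13.1) of the 3804 in the control against 17.3% (15.97 to 18.6) of the 3246 in the model, a ratio of 1.43 (1.26 to 1.62). The median depth of epithelial cells also differed, 4637 UMIs in the control and 7776 in the model, and a fixed UMI limit admits deeper cells more readily. When the cells with at least 5000 UMIs were thinned to that number and the limit lowered to a sum of 3, 1885 of 3804 control and 2314 of 3246 model epithelial cells remained. Among these unequal parts of the libraries the share was 22.7% (20.8 to 24.7) in the control, as in the model with 22.7% (20.995 to 24.5), a ratio of 0.999 (0.878 to 1.14). Thinning to 2000 UMIs with a limit of 2, which keeps shallower cells, gave 13.9% and 18.01%. The share of all kept cells changed direction when the mitochondrial limit was set at 10%, with 8.505% for the control against 7.76% for the model. No direction is read from the share of cycling cells.

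To place the cells in the cycle, the share of each cell's UMIs was taken for 35 S phase genes (DNA replication and its licensing) and for 47 G2 and M phase genes (mitotic kinases, cyclins, kinetochore and spindle proteins), with the 4 selecting genes left out of both. The S phase share had a median of 0.160% of UMIs in control and 0.162% in model cells, and the G2 and M phase share 0.579% and 0.575%. The S phase share was the larger of the pair in 70 of 458 control cells (15.3%, 12.1 to 18.9) and in 111 of 560 model cells (19.8%, 16.6 to 23.4). At 5000 UMIs per cell these were 16.7% and 21.6%, and with a mitochondrial limit of 10% they were 18.5% and 20.2%. The intervals overlap, and 54 control and 80 model cells lay within 0.5 log2 units of equal shares. Because transcripts of the selecting genes peak late in the cycle, cells in G1 and early S phase are under-represented by construction, and the percentages do not give phase lengths.

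**Figure D1:**
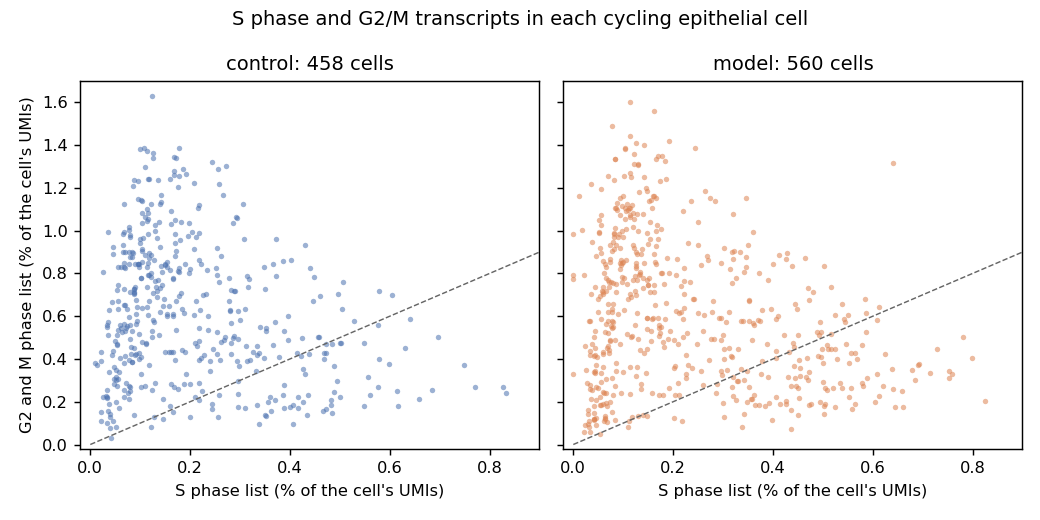
Each point is a cycling epithelial cell, with the percent of its UMIs from S phase genes on the horizontal axis and from G2 and M phase genes on the vertical axis, in 458 control and 560 model cells. The dashed line marks equal percentages; 70 control and 111 model cells lie below it, and both libraries fill the same bent cloud.

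All members were then put in order by the ratio of their G2 and M phase share to their S phase share and cut into 4 bins of near equal size over both libraries together. The first bin, nearest to S phase, held 98 control and 157 model cells (21.4% and 28.0%), the next 111 and 143, the one after 136 and 118, and the last, nearest to mitosis, 113 and 142. Levels are given in CPM, the UMIs of a gene summed over a group of cells per 1000000 UMIs of those cells, which allows a gene to be compared between cells but not with another gene. Ccne2, the cyclin of the G1 to S transition, went from 44.3 CPM in the first bin to 14.6, 4.14 and 2.14 in the control and from 55.2 to 12.9, 7.38 and 0.608 in the model. Pcna went from 412 to 56.6 and from 420 to 55.4. Slbp, which binds histone messages during replication, went from 198 to 44.5 and from 182 to 37.7. Ccnb1, the mitotic cyclin, climbed from 16.8 to 160 in the control and from 17.1 to 172 in the model, and Cdc20, the activator of the anaphase-promoting complex, from 26.3 to 268 and from 32.3 to 308. These genes belong to the lists that made the order, so their slopes are a description. Arl6ip1, a membrane-shaping protein of the endoplasmic reticulum that belongs to neither list, followed the mitotic genes, from 204 to 703 CPM and from 216 to 783.

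Promoter sequences of cycle genes at either end of this order are shown to let the shared letters be seen. They are the 120 bases before the annotated start of 3 G2 and M phase genes and 2 S phase genes, written 5′ to 3′ on the strand of the gene, from RefSeq on the GRCm38.p6 build, and the genes were picked after their values were known. Capitals mark CCAAT (NF-Y letters; ATTGG on the other strand), TTTGAA (letters of the CHR element of mitotic genes; TTCAAA on the other strand) and GCGGGA (E2F letters; TCCCGC on the other strand). Cdc20 lies on the minus strand at chr4:118437344-118437463, Cdk1 on the minus strand at chr10:69352913-69353032, Ccnb1 on the minus strand at chr13:100786487-100786606, Slbp on the minus strand at chr5:33652575-33652694 and Mcm6 on the minus strand at chr1:128359706-128359825.
Cdc20: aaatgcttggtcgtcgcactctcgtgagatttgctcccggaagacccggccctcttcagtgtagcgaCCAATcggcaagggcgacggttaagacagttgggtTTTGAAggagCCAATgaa
Cdk1: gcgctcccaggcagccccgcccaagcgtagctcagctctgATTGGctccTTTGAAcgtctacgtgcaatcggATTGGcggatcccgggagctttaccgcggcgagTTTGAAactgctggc
Ccnb1: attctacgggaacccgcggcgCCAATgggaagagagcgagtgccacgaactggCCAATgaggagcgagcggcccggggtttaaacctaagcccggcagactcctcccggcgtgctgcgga
Slbp: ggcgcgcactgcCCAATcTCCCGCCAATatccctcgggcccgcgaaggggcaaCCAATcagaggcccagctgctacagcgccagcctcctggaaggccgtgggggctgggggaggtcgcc
Mcm6: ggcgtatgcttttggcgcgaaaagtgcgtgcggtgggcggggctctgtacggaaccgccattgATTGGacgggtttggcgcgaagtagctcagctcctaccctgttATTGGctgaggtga

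In Slbp a CCAAT overlaps a TCCCGC, so the capitals there run together. Over the 250 bases before the start, on either strand, CCAAT stood in 33 of 41 matched G2 and M phase promoters (80.5%), in 19 of 28 matched S phase promoters (67.9%) and in 34.5% of all 27025 promoters. TTTGAA stood in 39.0% of G2 and M phase promoters, 17.9% of S phase promoters and 16.3% of all. GCGGGA had the other pattern, with 36.6% of G2 and M phase, 67.9% of S phase and 16.9% of all promoters. CCAAT and TTTGAA stood together in 15 of 41 G2 and M phase promoters (36.6%), 4 of 28 S phase promoters (14.3%) and 5.73% of all. Letters in a window are not binding, which was not measured here.

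**Figure D2:**
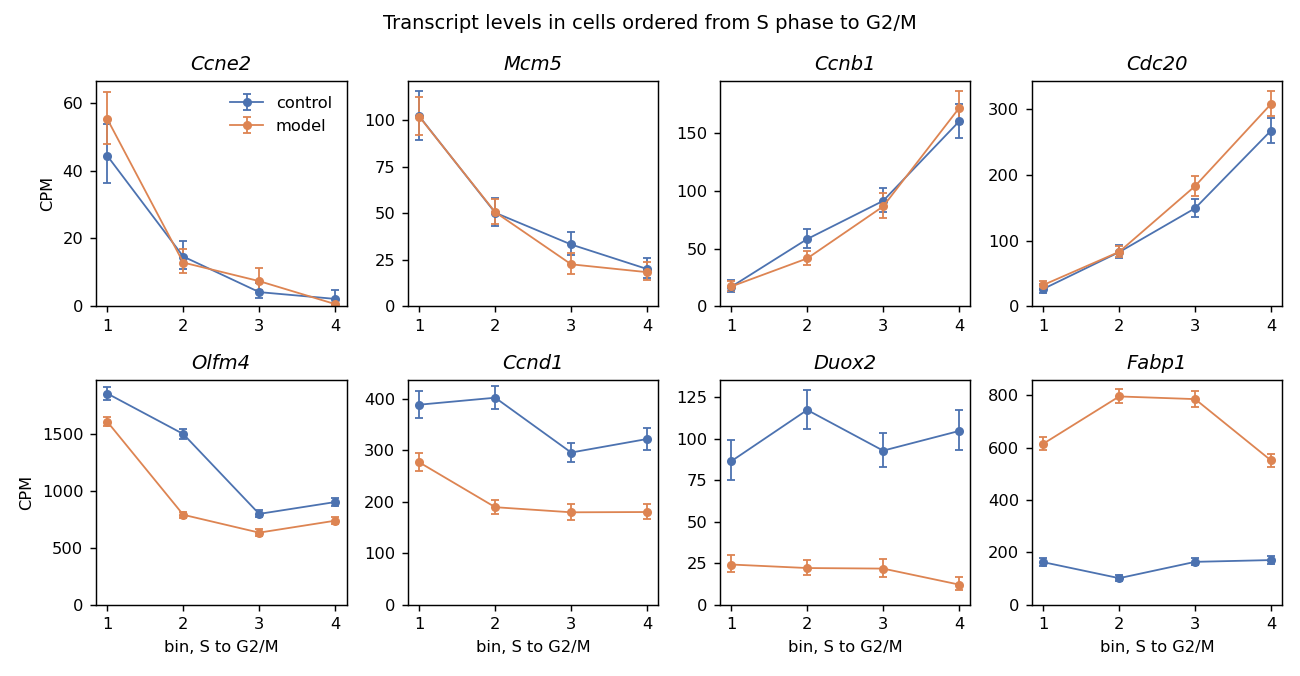
CPM of 8 genes in bins 1 to 4 of the cycling cells, ordered from S phase to G2 and M phase, in the control and model library; bars are exact 95% counting intervals. Ccne2 and Mcm5 descend and Ccnb1 and Cdc20 climb in both libraries, whereas Ccnd1 and Duox2 lie lower and Fabp1 higher in the model library in each bin.

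Other transcripts moved along the same order. Olfm4, a secreted protein of crypt base cells, went from 1855 CPM in the first bin to 902 in the last in the control and from 1607 to 738 in the model. The nucleolar protein gene Npm1 went from 1814 to 1143 and from 1754 to 1197, while the keratin gene Krt19 went the other way, from 1117 to 1372 and from 1145 to 1463. Across cells, the S phase share correlated with the share of Wnt and crypt base genes (Spearman 0.49 over 458 control and 0.48 over 560 model cells) and with that of ribosome biogenesis genes (0.50 and 0.48), and inversely with that of absorptive genes (−0.43 and −0.47). Wnt and absorptive shares were themselves inversely related (−0.62 and −0.68). All shares of a cell have the same UMI total and depth as their base, so these correlations describe the cells and carry no p-value.

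The model over control ratio was then taken for gene lists, over members of a list with at least 20 UMIs in the higher library. A gene was counted as higher or lower when its CPM differed at least 1.5-fold, which 3.68% of all 12452 genes at this UMI level did upward and 6.48% downward, with a median log2 ratio of −0.04. Of the S phase list, 0 of 35 genes were higher and 0 lower, and the median log2 ratio was 0.14, with 29 of 35 ratios above 1. Ccne2 had 172 control and 285 model UMIs (ratio 1.38, 1.14 to 1.68) and the uracil glycosylase Ung 249 and 392 (1.31, 1.12 to 1.55). At the low end stood the recombination factor Rad51ap1 with 270 and 255 UMIs (1.27-fold lower) and Dtl, which triggers destruction of licensing factors, with 427 and 425 (1.20-fold lower). Among the selected cells, transcripts of the replication machinery thus differed little in size, with most ratios slightly above 1. Without the members in a differentiated range 33 of 35 ratios were above 1, and 1 gene was higher (median 0.29). Cells of both libraries were admitted by the same UMI limit on cell cycle genes, which sets part of this closeness by construction. The list therefore cannot show whether replication differed between the libraries.

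Of the G2 and M phase list, 0 of 47 genes passed in either direction, and the median was −0.11, with 34 ratios below 1. Tubb4b, a spindle tubulin, had the highest ratio with 5883 and 8216 UMIs (1.16, 1.13 to 1.20), followed by the phosphatase gene Cdkn3 (1.08). The lowest were the cyclin Ccnf with 259 and 231 UMIs (1.34-fold lower, 1.12 to 1.61) and the spindle protein Ckap2 with 640 and 604 (1.27-fold lower). Cdk1, the mitotic kinase, had 1699 and 2028 UMIs and a ratio of 0.996 (0.933 to 1.06). Among the selected cells, mitotic transcripts thus stood at nearly the same level. Part of this closeness is set by construction. Cells of both libraries were admitted by the same UMI limit on selecting genes whose transcripts also peak late in the cycle. Leaving the selecting genes out of the list does not remove this dependence, so the list cannot show whether mitotic activity differed between the libraries.

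Replication-dependent histone genes, whose messages mostly lack a poly(A) tail and are caught poorly by poly(A) priming, gave 0 higher and 12 lower of 48 measured, with a median of −0.37. H3c8 had 51 and 29 UMIs (2.11-fold lower, 1.31 to 3.45) and H4c14 66 and 43 (1.84-fold lower). H2bc4 was at the top with 1604 and 2268 UMIs (1.18), next to H4c6 with 25 and 34 (1.13). Linker histones lay nearer to a ratio of 1, with H1f5 at 2838 and 3346 UMIs (0.983) and H1f4 at 2562 and 3030 (0.986). The share of messages with a tail was not measured, and these genes resemble each other, so reads may be split between copies.

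Among 25 measured genes of G1 entry and cell cycle inhibitors, 1 was higher and 2 lower. E2f1, a transcription factor that switches on S phase genes, had 117 control and 223 model UMIs (ratio 1.59, 1.27 to 2.01). By bin it stood at 26.7, 12.2, 3.25 and 1.07 CPM in the control and at 42.4, 11.4, 3.02 and 2.13 in the model, with the widest gap in CPM in the bin nearest to S phase. Ccnd1 (cyclin D1, ENSMUSG00000070348), which couples growth signals and Wnt to G1 progression, had 4158 and 2965 UMIs, 351 and 209 CPM, and was 1.68-fold lower in the model library (1.60 to 1.76). It was the lower of the pair in every bin, at 389, 403, 296 and 322 CPM in the control and 277, 190, 180 and 180 in the model. Ccnd1 had a UMI in 85.4% of control and 81.1% of model cells, or 69.5% and 57.2% after thinning to 5000 UMIs, against 3.85% and 2.47% of T cells thinned alike. Ccnd2 was closer, with 7198 and 7191 UMIs (1.20-fold lower), and Ccnd3 and Cdk4 had ratios of 1.14 and 1.23. The inhibitor Cdkn1c was 4.09-fold lower (92 and 27 UMIs), but 46.7% of its control UMIs lay in 3 cells and its level was under 0.2 of that in the cell group where it was highest.

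Damage response genes were read next. Of 27 measured p53 targets, 2 were higher and 0 lower, with a median of 0.15. Gdf15, a secreted stress factor, had 126 and 322 UMIs (2.13, 1.73 to 2.64) and Trp53inp1, an autophagy and cell death factor, 147 and 277 (1.57, 1.28 to 1.93), with 29.3% and 28.2% of its UMIs in 3 cells. The canonical targets varied: Cdkn1a, the cyclin kinase inhibitor p21, had 1558 and 2283 UMIs (1.22, 1.15 to 1.30), the cell death gene Bax 1254 and 2088 (1.39, 1.29 to 1.49), the p53 ubiquitin ligase Mdm2 407 and 450 (0.922), Ccng1 555 and 635 (0.954), and Sesn1 was 1.37-fold lower with 393 and 343. Of 32 DNA repair and checkpoint genes 0 passed in either direction (median −0.02), from the histone variant H2ax (1.24) and the repair kinase Prkdc (1.16) down to the helicase Blm (1.40-fold lower) and Xrcc2 (1.32-fold lower). Of 22 apoptosis genes 1 was higher, the executioner caspase Casp6 with 1058 and 2384 UMIs (1.88, 1.75 to 2.02), and 0 were lower.

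Wnt target and crypt base genes mostly had ratios below 1. Of 26 measured, 1 was higher and 2 lower, and 22 ratios were below 1, with a median of −0.30. The 2 lower genes were Prom1, a membrane protein of crypt progenitors, with 1323 and 1027 UMIs (1.54-fold lower, 1.42 to 1.68), and the RNA-binding protein Msi1 with 118 and 93 (1.52-fold lower, 1.15 to 2.02). Without the members in a differentiated range neither passed 1.5-fold (Prom1 1.44-fold and Msi1 1.29-fold lower), and the list gave 1 higher and 0 lower with a median of −0.23. The negative feedback gene Axin2 had 729 and 608 UMIs (1.44-fold lower), the crypt transcription factor Sox9 1420 and 1243 (1.37-fold lower), Ascl2, the stem cell transcription factor, 218 and 200, and Olfm4 14560 and 13665 (1.28-fold lower, 1.25 to 1.31). Olfm4 had a UMI in 79.3% of control and 73.0% of model cells, 61.7% and 57.2% after thinning, against 7.69% and 4.94% of thinned T cells. Tert, the telomerase subunit, was the member that was higher, with 30 and 64 UMIs (1.78, 1.14 to 2.84). Smoc2 and Aqp4, both crypt base genes, had ratios of 0.995 and 1.07.

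Notch and secretory fate genes gave 0 higher and 4 lower of 18 measured (median −0.36). The 4 were Dll1, a Notch ligand of early secretory cells, with 311 and 234 UMIs (1.59-fold lower, 1.34 to 1.90), and the enteroendocrine factors Insm1, Neurog3 and Neurod1, whose UMIs lay for 45.6% to 81.0% in 3 control cells. Of the 18 genes, 6 reached 0.2 of their highest level, with a median of −0.28. Without the members in a differentiated range the list gave 0 higher and 2 lower of 14 (median −0.11). There 8 log2 ratios were negative and 6 positive, and Dll1 was 1.82-fold lower. Hes1, the Notch target that blocks secretory fate, had 1916 and 2588 UMIs (1.13, 1.06 to 1.20), and Atoh1, which commits cells to secretory fate, 77 and 81. Atoh1 had a UMI in 5.46% of control and 4.11% of model cells, 2.18% and 2.18% after thinning, with 0 of 78 and 0 of 81 thinned T cells, which allows up to 3.85% and 3.70%. Dll1 was seen in 25.3% and 21.6% of cells, or 7.99% and 6.34% after thinning, against 1.28% and 1.23% of thinned T cells.

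Some members already carried differentiated products. By UMI limits on defining genes, 37 control (8.08%) and 33 model cells (5.89%) were in the goblet range, 9 and 11 in the enteroendocrine range, 2 and 2 in the tuft range and 0 and 0 in the Paneth range, which allows a Paneth share of up to 0.655% and 0.536%. The enterocyte range held 11 control cells (2.40%, 1.20 to 4.26) and 54 model cells (9.64%, 7.33 to 12.4). None of these ranges took 402 control (87.8%) and 466 model cells (83.2%). A cell in a range may be a committed dividing cell or a droplet with a dividing and a differentiated cell, which was not tested.

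The absorptive list followed this. Of 27 measured genes 7 were higher and 0 lower, with a median of 0.17. Fabp1, the fatty acid carrier of enterocytes, had 1751 and 9793 UMIs (4.66, 4.43 to 4.91), and Rbp2, the retinol carrier, 1831 and 7250 (3.30, 3.14 to 3.48). At the low end stood the transcription factor Klf4 with 1103 and 927 UMIs (1.43-fold lower). The factors that set absorptive identity were close between the libraries, with ratios of 1.03 for Hnf4a, 1.21 for Hnf4g, 1.12 for Cdx2 and 0.857 for Cdx1. Of the 27 genes 18 lay under 0.2 of their highest level, Fabp1 and Rbp2 among them. A UMI of Fabp1 was present in 65.3% of control and 84.1% of model cells, 32.9% and 60.0% after thinning, while thinned T cells had it at 19.2% and 30.9%.

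Among the members in none of these ranges, the absorptive list gave 3 higher and 2 lower genes and a median of 0.03. There Fabp1 had 1118 and 3182 UMIs (2.66, 2.48 to 2.85), Rbp2 a ratio of 2.18, and the brush border peptidase gene Anpep, at 2.00 over all members, a ratio of 1.22. Fabp1 and Rbp2 are among the genes that set the enterocyte range, so leaving out its cells cuts their levels by construction. Goblet genes went the other way over all members, with 10 of 12 lower and 0 higher (median −1.07), from Zg16 and Clca1 (2.89-fold and 2.83-fold lower) to Spdef (1.38-fold lower) and Klk1 (ratio 1.16). The mucin Muc2 was 2.48-fold lower with 5080 and 2453 UMIs. Outside the ranges Muc2 had 317 and 204 UMIs (1.66-fold lower), 1 of 9 measured goblet genes was higher and 3 lower, and each of the 12 goblet genes lay under 0.2 of its highest level. Muc2, Fcgbp and Clca1 set the goblet range, so their levels outside it are likewise cut by construction. Thinned shares of cells with Muc2 were 26.6% and 14.3%, beside 19.2% and 13.6% of thinned T cells and 54.6% and 38.4% of unthinned cycling cells.

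Paneth markers gave 10 lower of 11 (median −2.64, 210 and 61.9 CPM in sum), enteroendocrine markers 1 higher and 10 lower of 13 (median −1.07) and tuft markers 3 higher and 0 lower of 9 (median 0.19, but −0.26 without the 3 cells with most UMIs of each gene). All measured members of these 3 lists lay under 0.2 of their highest level. Of the enteroendocrine list, the 1 higher gene was the glucagon gene Gcg with 41 and 751 UMIs, of which 99.3% of the model UMIs lay in 3 cells.

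**Figure D3:**
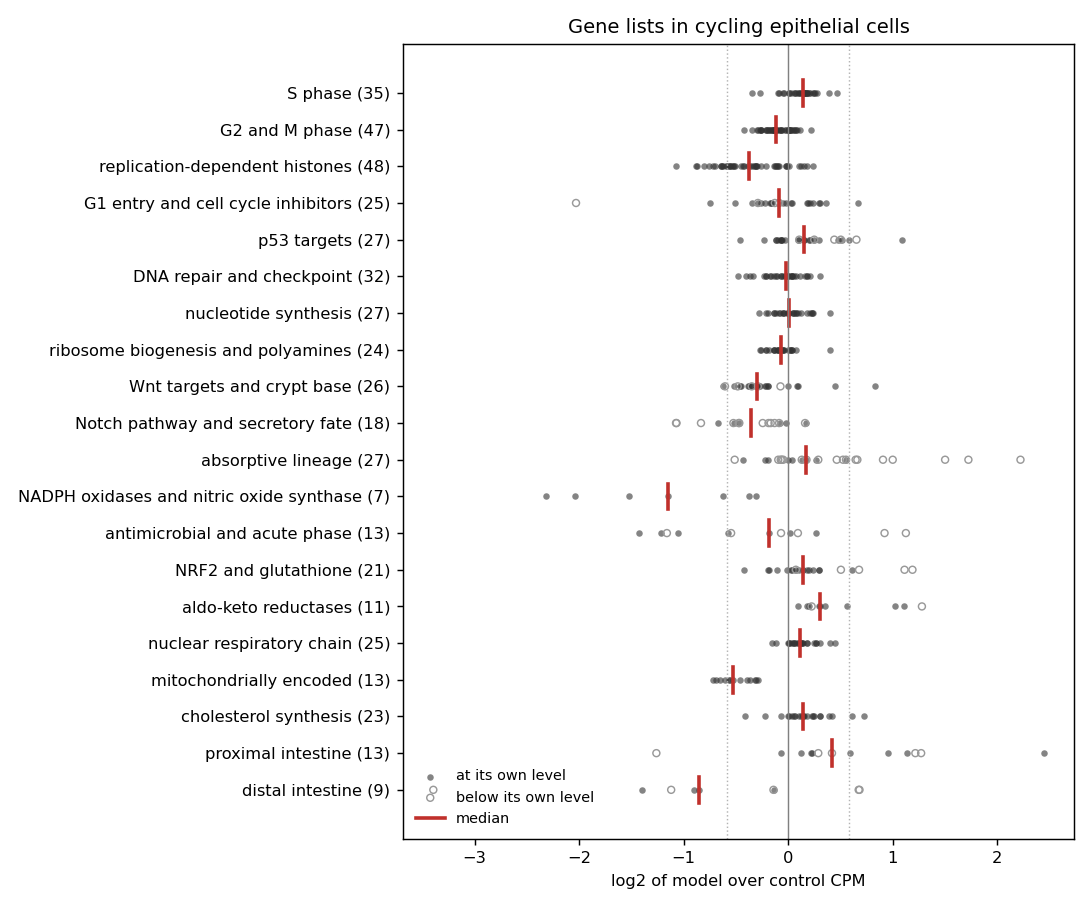
Log2 of the model over control CPM ratio for the measured genes of 20 lists (number in brackets) in the cycling cells; the red bar is the median, dotted lines mark 1.5-fold, and open points are genes under 0.2 of their highest level. S phase, mitotic, repair and nucleotide genes crowd around 0, while the oxidase list has a median of −1.15 and the distal intestine list one of −0.85.

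Over single genes with at least 50 UMIs in the higher library, 256 of 10617 were at least 1.5-fold higher in the model library (2.41%) and 376 at least 1.5-fold lower (3.54%), with a median log2 ratio of −0.03. The genes furthest from a ratio of 1 by their interval, with at least 0.2 of their highest level, are described by role. That level was taken over both libraries together, so a gene may reach it through the library where it is high.

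Genes of enzymes that make reactive oxygen and nitric oxide were lower in the model library. Duox2 (ENSMUSG00000068452), the dual oxidase that releases hydrogen peroxide at the luminal face, had 1202 control and 289 model UMIs, 101 and 20.3 CPM, and was 4.99-fold lower in the model library (4.38 to 5.69). Its maturation factor Duoxa2, with 0 other protein-coding genes between it and Duox2 in the RefSeq gene order, had 481 and 140 UMIs (4.12-fold lower, 3.41 to 5.01). Nos2, the inducible nitric oxide synthase, had 196 and 82 (2.87-fold lower, 2.20 to 3.76). Nox1, a superoxide-producing oxidase, had 85 and 46 UMIs (2.22-fold lower) and its partner Noxa1 185 and 144 (1.54-fold lower). The organiser Noxo1 and the shared subunit Cyba completed the list at 1.30-fold and 1.24-fold lower. All 7 measured genes thus had ratios below 1 and 5 passed 1.5-fold, for a median of −1.15. Nox1, the thinnest of them, had a log2 ratio of −1.15 that became −0.49 without the members that held 3 or more genes of another lineage.

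The Duox2 difference was spread over cells rather than carried by a few. A UMI of Duox2 was present in 59.8% of control and 24.5% of model cells. At 5000 UMIs per cell it was in 31.2% (26.8 to 35.9) and 6.73% (4.71 to 9.28), against 5.13% and 0% of thinned T cells, where 0 of 81 allows up to 3.70%. By bin Duox2 stood at 86.5, 117, 92.9 and 105 CPM in the control and at 24.3, 22.1, 21.8 and 12.2 in the model. It had no steady order in the control, and in the model it was lowest in the last bin. Without the members in a differentiated range Duox2 was 4.84-fold lower, and without the 3 cells with most UMIs of it in each library 5.12-fold lower.

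Antimicrobial lectins were lower too. Reg3b, a secreted C-type lectin, had 57191 and 29530 UMIs, 4822 and 2077 CPM (2.32-fold lower, 2.29 to 2.36), and Reg3g, a lectin directed at Gram-positive bacteria, 26750 and 11950 (2.68-fold lower, 2.63 to 2.74). Outside the differentiated ranges the differences were larger, at 3.63-fold for Reg3b and 3.26-fold for Reg3g. Reg3g had a UMI in 87.8% and 80.9% of cells, 77.5% and 63.8% after thinning, against 20.5% and 16.05% of thinned T cells. Reg3b is also abundant in free RNA, with a UMI in 48.7% and 45.7% of thinned T cells. Over the antimicrobial and acute phase list 2 of 13 genes were higher and 4 lower, the higher being the epithelial cytokine Il18 (2.18) and Reg1 (1.89), both under 0.2 of their highest level.

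Gasdermin C genes, whose products can form membrane pores, lie next to each other with 0 other protein-coding genes between Gsdmc2, Gsdmc3 and Gsdmc4. Gsdmc3 had 127 and 11 UMIs (13.8-fold lower, 7.48 to 28.4), Gsdmc2 422 and 110 (4.60-fold, 3.72 to 5.73) and Gsdmc4 759 and 266 (3.42-fold, 2.97 to 3.95). These copies are closely alike, so reads may be split between them, and the 3 values are not independent. Mgat4c, a glycosyltransferase gene, had 234 and 74 UMIs (3.79-fold lower, 2.91 to 4.99).

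Of the genes that were higher in the model library, those named by the same rule are given next. Arg2 (ENSMUSG00000021125), the mitochondrial arginase, had 1658 and 6270 UMIs, 140 and 441 CPM, a ratio of 3.15 (2.99 to 3.33). It was higher in each bin, at 110, 106, 176 and 162 CPM in the control and 314, 499.7, 480.5 and 475 in the model. A UMI of Arg2 was present in 59.6% and 78.0% of cells, 34.9% and 64.8% after thinning, against 3.85% and 4.94% of thinned T cells. Pdk4, the kinase that turns off pyruvate dehydrogenase, had 85 and 387 UMIs (3.80, 2.996 to 4.86), the carboxylesterase Ces1f 214 and 924 (3.60, 3.10 to 4.20) and creatine kinase Ckb 890 and 2374 (2.22, 2.06 to 2.41). Pdx1 (ENSMUSG00000029644), a transcription factor of duodenum and pancreas, had 15 and 98 UMIs (5.45, 3.15 to 10.1), in 14 control and 67 model cells.

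Nr1d1, a repressor of the circadian clock, had 125 and 383 UMIs (2.56, 2.08 to 3.15). St3gal4, a sialyltransferase, had 1971 and 4712 (1.99, 1.89 to 2.10), the carbonic anhydrase Car4 887 and 2058 (1.94, 1.79 to 2.10) and N4bp2l1 85 and 238 (2.34, 1.82 to 3.03). Akr1c19 and Akr1c13, aldo-keto reductases that reduce carbonyls, had 266 and 689 UMIs (2.16) and 645 and 1565 (2.02); they stand side by side with Akr1c12 in the gene order, with 0 other protein-coding genes between, and may share reads. With every member thinned to 5000 UMIs the log2 ratio of Akr1c19 was 0.42 instead of 1.11, under 1.5-fold. Outside the differentiated ranges each of these genes was still at least 1.5-fold higher, with ratios of 5.21 for Pdx1, 4.37 for Pdk4, 2.90 for Ces1f, 2.75 for Arg2, 2.57 for Nr1d1, 1.94 for Akr1c13, 1.88 for N4bp2l1, 1.87 for Ckb, 1.85 for Akr1c19 and 1.61 for St3gal4 and for Car4.

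**Figure D4:**
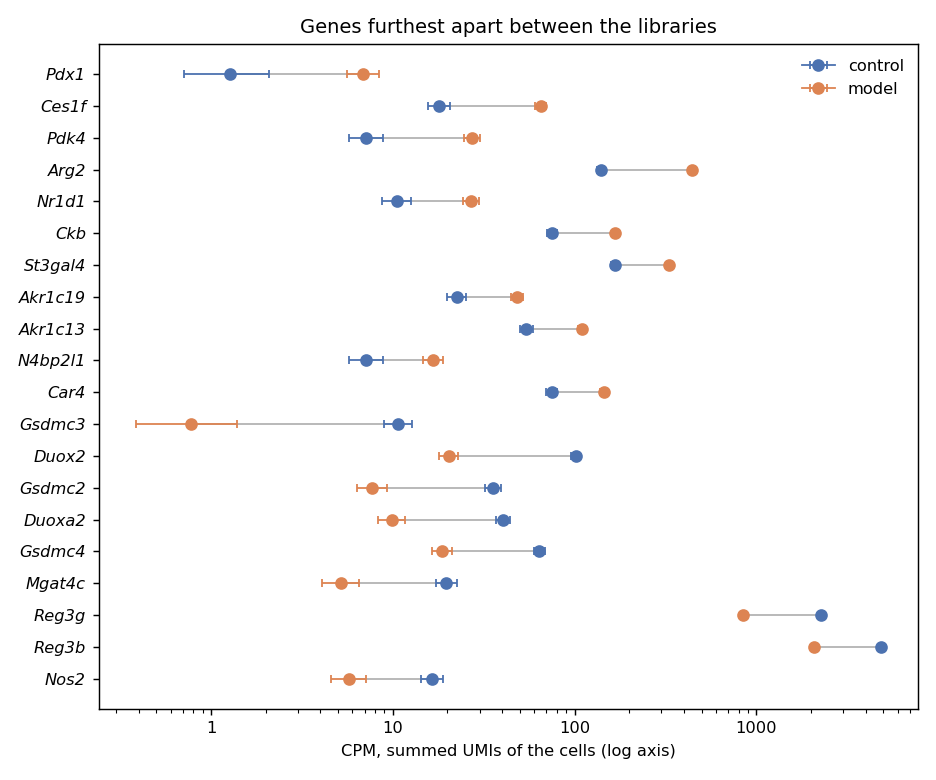
CPM of 20 genes in the cycling cells of the control and model library on a log axis, each summed over all cells of a library, with exact 95% counting intervals. Duox2 lies at 101 CPM in the control and 20.3 in the model, Arg2 at 140 and 441, and the intervals of each gene do not overlap.

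The oxidoreductase lists moved in part with these genes. Of 11 aldo-keto reductases 3 were higher and 0 lower (median 0.30, with all 11 ratios above 1), led by Akr1b7 with 55 and 160 UMIs (2.43) and lowest for Akr1a1 (1.07) and Akr1b8 (1.13). Of 21 NRF2 and glutathione genes 4 were higher and 0 lower, namely the glutathione transferases Gstm3 (2.28), Gsta1 (2.16) and Gstm1 (1.60) and catalase, Cat, with 705 and 1289 UMIs (1.52). The classical NRF2 targets Nqo1, Gclm, Gclc and Txnrd1 had ratios of 1.18, 1.05, 0.882 and 0.989, and the glutathione peroxidase Gpx2 was 1.34-fold lower. Of 23 cholesterol synthesis genes 2 were higher, Insig1 with 896 and 1774 UMIs (1.65, 1.52 to 1.79) and Fdft1 with 425 and 776 (1.52), and 20 ratios were above 1.

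Growth machinery differed little. Of 27 nucleotide synthesis genes, 24 ribosome biogenesis and polyamine genes and 24 cytosolic ribosomal protein genes, 0 passed in either direction, with medians of 0.01, −0.07 and 0.05. The folate enzyme gene Mthfd2 had the lowest nucleotide synthesis ratio (1.21-fold lower). Oaz1, the antizyme that limits polyamines, led the biogenesis list (1.32, 1.28 to 1.35).

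Nuclear and mitochondrial genes of the respiratory chain stood apart. Of 25 nuclear genes 22 had ratios above 1 (median 0.11), from Ndufa8 (1.37) and Cox5a (1.32) to Ndufa2 (1.11-fold lower). All 13 mitochondrially encoded genes had ratios below 1, 4 of them past 1.5-fold, with a median of −0.53 and a summed level of 47456 CPM in the control and 36131 in the model. These genes took part in the selection, because kept barcodes had at most 25% of UMIs from them. Their levels are thus capped by construction, and the limit alone left out 46 control and 34 model barcodes. The median ranged from −0.64 to −0.35 over 15 alternative settings. mt-Atp6, an ATP synthase subunit, was 1.64-fold lower and mt-Co3 1.61-fold lower, while mt-Nd1 was 1.22-fold lower. The median mitochondrial percent of all kept cells differed in the same direction, at 10.8% in the control and 5.38% in the model, and of the cycling cells at 7.21% and 5.49%. Whether cell state at dissociation had a part was not tested.

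Genes that mark stretches of the intestine differed in opposite directions. Of 13 measured proximal genes 6 were higher and 1 lower (median 0.42), with Pdx1 and the liver and gut transcription factor Creb3l3 (303 and 877 UMIs, 2.41) highest and the iron exporter Slc40a1 (2.40-fold lower) and Gata6 (1.05-fold lower) lowest. Onecut2, a transcription factor of the proximal gut, had 2357 and 4249 UMIs (1.504, 1.43 to 1.58), and Gata4 997 and 1395 (1.17, 1.08 to 1.27). Of 9 measured distal genes 2 were higher and 5 lower (median −0.85). The ileal bile acid carrier gene Fabp6 had 55 and 25 UMIs (2.64-fold lower), the phosphate carrier Slc34a2 79 and 9 (10.5-fold lower), and the transcription factor Osr2 952 and 633 (1.80-fold lower, 1.63 to 2.00). With every member thinned to 5000 UMIs the median of the distal list was −0.24. The bile acid exporter genes Slc51a and Slc51b were the higher members (1.60 each). Outside the differentiated ranges the proximal list had 6 higher and 1 lower of 13, with a median of 0.15 and 5 ratios below 1. The distal list there had 0 higher and 6 lower of 9 (median −0.89). Over all members, 8 of the 13 proximal and 4 of the 9 distal genes reached 0.2 of their highest level. The labels do not give the stretch, so region and group cannot be told apart, for these and for every other gene described.

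BMP signalling, which opposes Wnt along the crypt axis, was read from 13 measured genes, of which 1 was higher and 1 lower. The direct targets Id1 and Id3 had 3923 and 6979 UMIs (1.48, 1.43 to 1.54) and 2777 and 4944 (1.48, 1.42 to 1.56). The inhibitory Smad6 had 139 and 266 (1.60, 1.30 to 1.97), and the receptor Bmpr1a 737 and 851 (0.963). The signal-carrying Smad1, Smad4 and Smad5 stood at 0.949, 0.964 and 1.05.

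RNA of other lineages was present at low level and differed between the libraries. At least 3 different T cell, myeloid or stromal genes were held by 73 control (15.9%) and 132 model cells (23.6%). The 5 measured T cell markers were all higher (47.1 and 76.4 CPM in sum over all 14 listed, with Cd2 at 0 in the control), and 7 of 9 B and plasma cell markers were higher and 1 lower (1818 and 4386 CPM). Cells with at least 20 Jchain UMIs, 4 control and 13 model cells, held 1455 of 1950 control and 5348 of 6066 model Jchain UMIs, and without them the median of that list went from 1.32 to 0.07. Of the myeloid markers 1 of 2 measured was higher and 1 lower (9.87 and 10.6 CPM, with Itgax and Xcr1 at 0 in the control). All 8 measured stromal and vessel markers were lower (34.4 and 2.74 CPM, with Cdh5, Kdr and Lum at 0 in the model library). The median of the stromal list, −4.25, was −1.17 without the 3 cells with most UMIs of each gene. Of the single genes, Ighg2c had 14 and 1208 UMIs, with 97.8% of the model UMIs in 3 cells and 11 and 27 UMIs without the top 3 cells of each library. The hemoglobin genes Hbb-bs, Hba-a1 and Hba-a2 had 294, 110 and 92 control UMIs in 2, 1 and 1 cells and 0, 0 and 1 model UMIs. Whether these cells are mixed droplets was not tested.

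Set beside Lgr5-positive cycling epithelial cells (76 control and 67 model), chosen by the same limits except that Lgr5 had at least 1 UMI, the members had lower Wnt and crypt base levels, 3494 and 2799 CPM against 11527 and 10327. Their absorptive level was higher, 5311 and 6848 against 3914 and 3615. The cycle lists were close, with S phase at 2044 and 2215 against 2218 and 2760 CPM, and G2 and M phase at 6127 and 5824 against 6454 and 6109. Non-cycling Lgr5-negative epithelial cells (2522 and 1736), with 0 UMIs of the 4 selecting genes, had S phase at 303 and 352, Wnt at 637 and 588 and absorptive genes at 45090 and 45775 CPM. The cycling cells thus lay between both on the Wnt and absorptive scales, in each library. Since Lgr5 and the 4 genes drew these groups, this is a description.

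By single genes, the Lgr5-positive cycling cells were above the members for the stomach and crypt secreted gene Gkn3 (6.47-fold in the control and 6.09-fold in the model), the RNA-binding proteins Msi1 (5.45 and 6.61) and Mex3a (5.33 and 7.25) and Olfm4 (4.91 and 5.52). The members were above them for Cdkn2b, a cyclin kinase inhibitor (8.68-fold and 9.48-fold), for the hormone gene Ghrl (11.5 and 20.7, from 6 and 4 UMIs in the Lgr5-positive cells) and for Apol10a (7.09 and 10.2). Members in the enteroendocrine range numbered 9 and 11, and whether they held the Ghrl UMIs was not tested. The same ranking held the leukocyte gene Cd52 (12.5 and 7.97), seen in only 5.68% and 7.86% of members. Defensin genes also differed, with Defa24 138-fold and 6.16-fold lower in the members. The summed Paneth markers of the Lgr5-positive cycling cells were 24174 CPM in the control and 313 in the model, and whether mixed droplets supplied them was not tested.

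**Figure D5:**
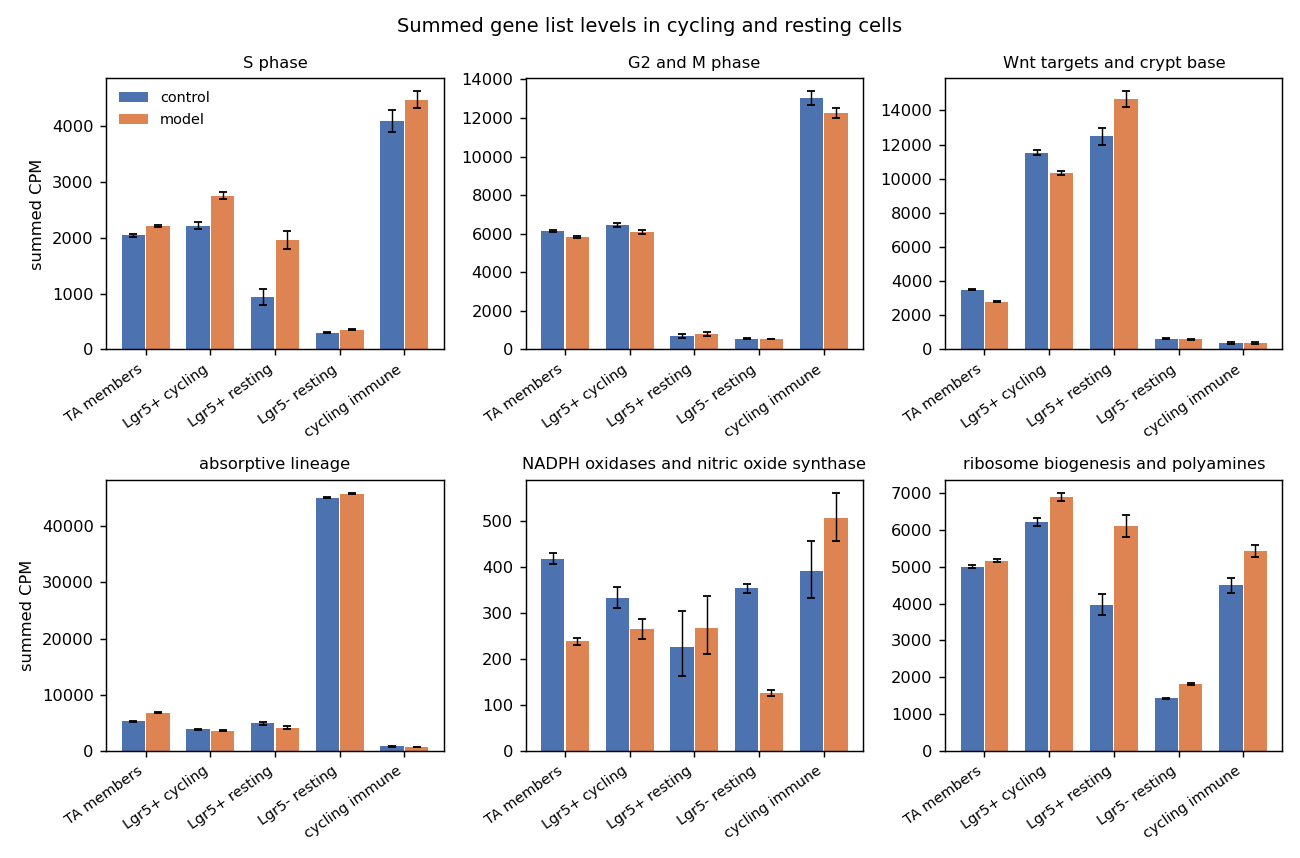
Summed CPM of 6 gene lists in the cycling transit-amplifying cells (TA members), Lgr5-positive cycling, Lgr5-positive and Lgr5-negative non-cycling epithelial cells and cycling immune cells, by library, with exact 95% counting intervals. The members lie between Lgr5-positive cycling cells and Lgr5-negative resting cells for Wnt and absorptive genes, and the oxidase list is lower in the model library in members (418 and 238 CPM) and in Lgr5-negative resting cells (353 and 126), but higher in cycling immune cells (391 and 507) and in the few Lgr5-positive resting cells (227 and 268).

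The main differences of the members were set beside those of the other epithelial cells. Duox2 was 4.99-fold lower in the members, 3.71-fold in Lgr5-positive cycling cells (108 and 27 UMIs) and 23.3-fold in Lgr5-negative resting cells (1339 and 57). Reg3b was 2.32-fold and 2.22-fold lower in the cycling groups, but had a ratio of 2.00 (1.98 to 2.01) in resting cells. St3gal4 had a ratio of 1.99 in the members, 1.25 (0.941 to 1.66) in Lgr5-positive cycling cells and 0.910 in resting cells. Id1 had ratios of 1.48 in members and 2.06 in Lgr5-positive cycling cells, against 1.09 in resting cells, and Arg2 ratios of 3.15, 3.09 and 2.48. With 1 library per group the differences between these ratios were not tested.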

How the data were processed

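The authors deposited 1 filtered 10x matrix of UMI counts per library, whole-number counts per gene and cell barcode. Per the file headers they were made with Cell Ranger 7.0.1, but per the submitters' processing notes the version was Cell Ranger 4.0, with the build GRCm39. Which version made the counts could not be settled, and no source used here gives how doublets were handled before deposit.

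Counts were summed over the cells of a library and scaled to CPM. Ratios carry exact binomial 95% intervals, shares Clopper-Pearson intervals, and a count of 0 a floor of 3 UMIs. UMIs without replicate libraries give counting error only, so no p-value was computed. The ratio code was tested on simulated data. A gene counted as higher or lower past 1.5-fold with at least 50 UMIs in the higher library (20 for the 41 lists). Single genes named were the 12 highest and 12 lowest by the interval bound nearest to 1, with a level over both libraries of at least 0.2 of that in the cell group where the gene was highest, leaving out mitochondrial, ribosomal protein, unnamed, selecting and variable antigen receptor genes. Of each list the 2 highest and 2 lowest ratios could be named, with others for their role. Members and lists were chosen with earlier results of these data known.

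Differentiated ranges were set by summed UMIs of Apoa1, Fabp1, Rbp2 and Alpi (at least 100, enterocyte), Muc2, Fcgbp and Clca1 (30, goblet), Chga and Chgb (20, enteroendocrine) and Dclk1, Trpm5 and Sh2d6 (5, tuft). T cells, used for background, were kept barcodes with at least 2 UMIs of the Cd3 genes and 0 of Epcam (752 control and 1493 model, with median depths of 2944.5 and 2616 UMIs). No doublet caller was run; cells with RNA of a second lineage were kept and left out as an alternative. Cells were thinned by drawing 5000 or 2000 UMIs, which left 413 control and 505 model members at 5000. Promoter sequences and gene order came from RefSeq on GRCm38.p6 and were not joined to coordinates of the files. Python 3.11.15, numpy 2.4.6, scipy 1.17.1, pandas 2.3.3 and matplotlib 3.10.9 were used.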

Additional observations from a re-analysis of the deposited data

How the results depend on the processing

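No paired analysis was possible because each group has 1 library. The log2 ratio of the share of cycling cells, 0.18 over kept cells, was −0.13 at a mitochondrial limit of 10%, 0.44 without the 10% of cells with most UMIs, 0.52 over epithelial cells, and, chosen after seeing the data, −0.18 for cells of at least 10000 UMIs and 0.38 over epithelial cells thinned to 2000 UMIs; the direction is thus not settled. The counts of 256 higher and 376 lower genes, of 10617 tested, became 122 and 93 of 7409 at 200 UMIs or more. At 20 UMIs or more they were 458 and 807 of 12452. With each member thinned to 5000 UMIs they were 192 and 190 of 6528. Lower genes outnumbered higher ones in the main setting, at 20 UMIs and in each other alternative, but not at 200 UMIs or after thinning. For example, there were 277 higher and 341 lower genes when scaled to the median ratio, and 288 and 520 by the mean of per-cell CPM. The S phase median of 0.14 was 0.066 at the 10% mitochondrial limit, 0.20 at a selecting sum of 10, 0.17 with Lgr5 not used, 0.20 without the cells with most UMIs, 0.24 thinned, 0.17 scaled to the median ratio and 0.29 without members in a differentiated range (chosen after seeing the data), above 0 in each. The medians of the G2 and M phase and oxidase lists moved by less than their spread, which is wide for the 7 oxidase genes. The oxidase median of −1.15 ranged from −1.28 to −0.68 over 15 settings. It was −0.68 without the cells with most UMIs and −0.73 without members holding 3 or more other-lineage genes. Without members in a differentiated range it was −0.81. Of 426 other values of single genes 355 stayed within their counting interval and 71 did not, and of 552 list medians 535 stayed and 17 did not; the cause was not tested. None of the 29 single genes run under these alternatives changed sign in 15 settings (12 for the 3 hemoglobin genes); other genes named were not run. List medians near 0 changed sign for interferon gamma and clock genes in 6 settings each, nucleotide synthesis in 4, DNA repair and glycolysis in 3, type I interferon, unfolded protein response and tuft in 2, and BMP and apoptosis in 1. Depth limits the rarer genes: at 5000 UMIs per cell Neurog3 was in 0.726% and 0.594% of cells.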

Other observations

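Several programmes outside the comparisons above were read in the same cells. Clock genes gave 4 higher and 2 lower of 15 measured, among them the clock output factor Dbp with 8 and 27 UMIs (2.81) and the clock repressor Ciart with 6 and 25 (3.48), both at low counts, and the repressors Per2 with 201 and 140 (1.72-fold lower, 1.38 to 2.15) and Cry1 with 207 and 165 (1.504-fold lower). The median was 0.008 over all 15, but −0.34 over the 9 that reached 0.2 of their highest level. Without the members in a differentiated range it was −0.16, with 9 of 14 ratios below 1. The time of day of each collection is not given in the labels, so time and group cannot be told apart. Hk2, the inducible hexokinase, had 1630 and 983 UMIs and was 1.99-fold lower (1.84 to 2.15) within a glycolysis list of 18 with 0 higher and 3 lower, in which Pgam1 and Gapdh stood at 1.32 and 1.22. Ccl25, the chemokine that draws lymphocytes to the small intestine, had 4128 and 7104 UMIs (1.44), while Ccl20, which draws cells to lymphoid follicles, had 80 and 63 (1.52-fold lower).

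Of 15 tight junction genes 0 passed in either direction; the pore-forming claudin Cldn2 had 1227 and 1001 UMIs (1.47-fold lower, 1.35 to 1.60) and Cldn3 had 7522 and 11421 (1.27). Of 22 unfolded protein response genes 2 were lower, Ern2, a goblet cell stress sensor (83 and 39 UMIs), and Asns, the asparagine synthetase (412 and 326, 1.52-fold lower). Areg, an epidermal growth factor receptor ligand, had 1615 and 2732 UMIs (1.41) in a regeneration list of 14 with 0 higher and 2 lower. Of 20 measured MHC class II and interferon gamma genes 0 were higher and 4 lower (median −0.04). Among these lower genes was Cxcl9 with 161 and 13 UMIs, of which 99.4% of the control UMIs lay in 3 cells. Only 4 of the 20 genes reached 0.2 of their highest level, and their median was 0.20. Type I interferon targets gave 5 higher and 2 lower of 24 (median 0.07), at low counts such as 76 and 159 for Isg15 (1.74). Of the 24 genes, 5 reached 0.2 of their highest level, with a median of −0.04. Without the members in a differentiated range the list gave 3 higher and 1 lower of 21. Its median was −0.14 there, with 13 log2 ratios negative and 8 positive. Whether RNA of other lineages had a part was not tested.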
